A study of Mus musculus with 8 samples.

Results

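Axon guidance ligands and receptors were examined for differential 5-hydroxymethylcytosine in mouse embryonic stem cells that had lost Ogt. The group was a fixed list of 54 genes of the semaphorin, plexin, neuropilin, Eph, ephrin, netrin, Slit, Robo and Rgm families, out of 21774 protein-coding genes. A gene was said to hold a region when the midpoint of a region lay in its RefSeq span, on the GRCm38.p6 assembly, extended by 1 kb at both ends. By this rule 72 of the 12594 deposited regions lay in the 54 genes, and no region was counted in more than 1 of them.

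The cells carried floxed alleles of Ogt (Ogt fl/fl), the gene of the enzyme that attaches O-GlcNAc to nuclear and cytosolic proteins. Cells cultured for 6 days with 4-hydroxytamoxifen (4-OHT), which were sorted for a YFP reporter and are named Ogt iKO, were compared with cells of the same genotype cultured for 6 days without it. Both kinds had grown on mitomycin C-treated fibroblast feeders, which were removed by sorting. Effects of 4-OHT or of the YFP sort cannot be told apart from the loss of Ogt, since both groups that received 4-OHT are the knockout groups. Each condition gave 2 CMS-IP and 2 input libraries, and the labels do not say whether the replicates came from separate cultures. In CMS-IP, bisulfite turns 5-hydroxymethylcytosine into cytosine 5-methylenesulphonate, and an antibody against that adduct recovers the DNA. The authors deposited 8578 regions that were higher and 4016 that were lower in Ogt iKO cells, as positions on mm10. These lists give no fold change, p-value or value per library, so the depth behind a region and the replicate error are unknown. No test between conditions could be made, and the counts below describe the lists.

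Axon guidance cues steer growing axons and migrating cells. Semaphorins signal through plexins, often with neuropilins as co-receptors; ephrins bind Eph receptor tyrosine kinases on neighbouring cells; netrins attract or repel through Dcc, neogenin and Unc5 receptors; and Slits repel through Robo receptors. Rgm proteins bind neogenin. Many of these genes are very long, and their main roles are in the developing nervous system and vasculature, whereas embryonic stem cells are undifferentiated. 5-hydroxymethylcytosine is made by TET enzymes from 5-methylcytosine, which in mammals lies mostly at CG dinucleotides.

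A single RefSeq promoter window of a guidance gene overlapped a region. RefSeq windows of 300 bases, which run from 250 bases before a start to 50 after it, were found for 45 of the 54 genes (60 windows). The window that was overlapped belongs to an internal start of Robo2, 355 kb inside the gene from its outermost start, and it lay wholly within a higher region of 719 bp (chr16:75092393-75093111). Over all protein-coding genes with a window, 0.234% had a window that overlapped a higher region and 0.200% one that overlapped a lower region. The nearest of the other windows were those of Neo1, 3.98 kb from a higher region of 334 bp (chr9:59032079-59032412), of an internal start of Sema6d, 5.94 kb from a higher region, and of Robo1, 6.32 kb from a higher region of 477 bp (chr16:72669515-72669991). The 250 bases before the overlapped and the outermost Robo2 starts and before the Robo1 and Neo1 starts are shown. They run 5′ to 3′ on the gene's strand from RefSeq (GRCm38.p6), with each CG in capitals. The internal Sema6d start is not shown. The first line is the overlapped Robo2 start and the next the outermost Robo2 start, which has no region within 354 kb.

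Robo2, chr16:75092771-75093020, minus strand: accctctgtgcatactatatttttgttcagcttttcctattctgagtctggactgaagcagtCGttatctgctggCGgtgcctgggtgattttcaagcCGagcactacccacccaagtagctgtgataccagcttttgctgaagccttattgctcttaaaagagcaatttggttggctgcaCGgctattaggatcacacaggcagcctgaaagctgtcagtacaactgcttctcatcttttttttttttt
Robo2, chr16:75447294-75447543, minus strand: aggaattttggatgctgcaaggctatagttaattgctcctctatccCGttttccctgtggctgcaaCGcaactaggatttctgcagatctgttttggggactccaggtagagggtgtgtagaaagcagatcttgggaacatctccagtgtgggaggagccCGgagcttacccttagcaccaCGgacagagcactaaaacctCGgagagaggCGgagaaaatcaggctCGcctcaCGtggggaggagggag
Robo1, chr16:72662899-72663148, plus strand: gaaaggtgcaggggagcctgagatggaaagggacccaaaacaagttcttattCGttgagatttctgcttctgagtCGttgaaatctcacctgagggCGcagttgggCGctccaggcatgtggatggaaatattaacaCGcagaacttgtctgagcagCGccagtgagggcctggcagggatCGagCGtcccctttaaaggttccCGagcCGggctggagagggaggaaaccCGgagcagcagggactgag
Neo1, chr9:59036442-59036691, minus strand: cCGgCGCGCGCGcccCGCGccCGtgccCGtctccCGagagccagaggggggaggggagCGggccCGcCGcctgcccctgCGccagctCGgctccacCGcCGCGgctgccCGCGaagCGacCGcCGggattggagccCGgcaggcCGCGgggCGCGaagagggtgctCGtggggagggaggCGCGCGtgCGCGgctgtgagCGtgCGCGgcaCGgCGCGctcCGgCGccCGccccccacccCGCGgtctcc

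The overlapped Robo2 sequence has 4 CG in 250 bases. The internal Sema6d start, which is not shown, has 6, so it is nearly as poor in CG. The outermost Robo2 start has 8, the Robo1 start 11 and the Neo1 start 45. Counted over whole windows of 300 bases, the 60 windows of guidance genes held a median of 23.0 CG, with a range of 2 to 56. The median over the 21263 windows of all protein-coding genes was 13.0, and 95.4% of those held at least 1 CG (CG reads the same on both strands). Windows of guidance genes that held a region anywhere in their span had a median of 16.0 CG (28 windows), and those of guidance genes without a region 24.5 (32 windows). A gene with several windows counts once for each. All windows of members under 50 kb fall in the group without a region, so gene length differs between the groups. The difference was not tested. CG-rich starts were thus the common kind among these genes, and the start that lay in a region was one of the poorer in CG.

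Of the 54 guidance genes, 28 held a region. The percentage over all protein-coding genes was 20.5%, but guidance genes are long, with a median span of 149 kb, and long genes hold regions more often. Set against the other protein-coding genes of the same length class, 27.6 of the 54 would hold a region at the rate of their classes, so the count of 28 is a share at the background and is no result about guidance genes as a group. Higher regions were found in 21 genes (23.0 at the class rate, 15.3% of all protein-coding genes) and lower regions in 16 (13.5 at the class rate, 8.51% of all). Both were found in 9 (3.34% of all), a count that was not set against genes of matched length and is no result about guidance genes. The 200 protein-coding genes nearest in length to each member, or as many as exist for the longest, gave nearly the same comparison, with 28.2 genes at their rate.

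**Figure D1:**
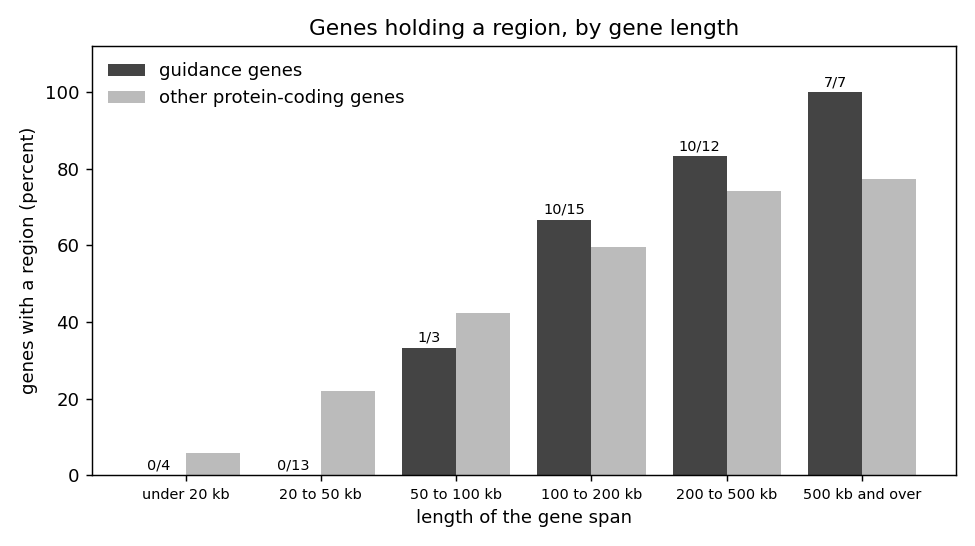
Percentage of genes that held at least 1 region of either list (vertical axis) in 6 classes of gene length (horizontal axis), for the guidance genes (dark bars, with counts) and the other protein-coding genes (light bars). With spans extended by 1 kb, none of the 17 guidance genes under 50 kb held a region and all 7 of 500 kb and over did.

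Within the group, holding a region followed gene length. None of the 17 members under 50 kb held a region, against 3.08 at the class rate; in the other protein-coding genes, 5.86% of those under 20 kb and 21.9% of those of 20 to 50 kb held one. This absence depends on the extension of 1 kb. Regions lay 3.32 kb outside Plxnb2, 4.69 kb outside Efnb2 and 5.70 kb outside Rgmb, and an extension of 10 kb would count them. The short members were Sema3f, Sema4a, Sema4b, Sema4c, Plxna1, Plxnb1, Plxnb2, Plxnd1, Epha2, Epha8, Ephb3, Ephb4, Efna1, Efna2, Efnb2, Rgma and Rgmb. Of the 30 members between 50 and 500 kb, 21 held a region (19.1 at the class rate). The counts were 1 of 3 at 50 to 100 kb, 10 of 15 at 100 to 200 kb and 10 of 12 at 200 to 500 kb, where 42.4%, 59.6% and 74.3% of the other genes held one. All 7 members of 500 kb and over held one, against 77.3% of the other 220 genes of that class. These 7 were Sema6d, Epha6, Unc5d, Dcc, Robo1, Robo2 and Slit3. They held 36 regions, with 21.7 at the class rate; without Robo1, the 6 that are left held 25, with 18.6 at the class rate.

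Direction was near that of genes at large. Of the 72 regions in guidance genes, 51 were higher and 21 lower, a higher share of 70.8% (95% Wilson interval 59.5 to 80.1%, counting error only; regions of a gene share their source and are not replicates). Other protein-coding genes had 69.6% higher, and the length classes of the members 72.1%. The counts themselves, 51 higher and 21 lower regions, compare with 47.1 and 18.3 at the class rates. Receptors held 31 higher and 11 lower regions (26.2 and 10.1 at the class rates) and ligands 20 and 10 (20.9 and 8.18), so neither role stood far from the genes of its length.

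**Figure D2:**
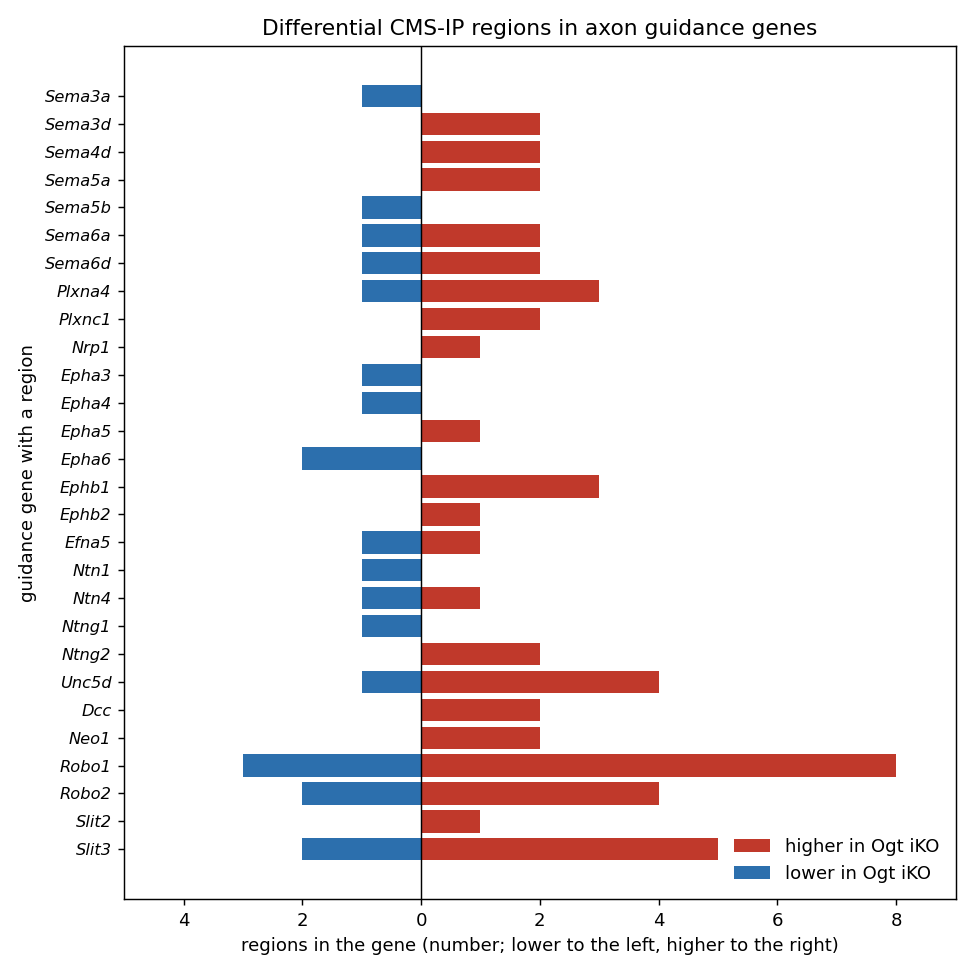
Number of regions in each of the 28 guidance genes that held any (horizontal axis), with higher regions drawn to the right and lower regions to the left of the zero line. Robo1 has 8 higher and 3 lower regions and is the gene with the most in each direction.

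Of the families, the Slit-Robo genes together held the most regions relative to their length classes, but unevenly. Robo1 held 11, Slit3 7, Robo2 6, Slit2 1 and Slit1 0. Robo1 and Robo2, transmembrane receptors of the immunoglobulin superfamily, and the secreted ligands Slit1, Slit2 and Slit3 held 25 regions together, 18 higher and 7 lower, where their length classes give 8.95 and 3.27. With the genes nearest in length in place of the classes, the background was 9.37 higher and 3.40 lower. Leaving the 5 Slit-Robo genes out, the other 49 members held 33 higher and 14 lower regions, below the 38.1 and 15.0 at the class rates. The difference between Slit-Robo and the other families was not tested, since regions within a gene are not replicates.

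Robo1 (chr16:72027518-73047491, 1020 kb) held 11 regions. Among the 227 protein-coding genes of 500 kb and over, 7 held 11 or more, Robo1 included. Its 154 neighbours in length held a mean of 3.36 regions, and 6 of them held as many as Robo1 or more. The regions were not spread evenly. The single region before the internal RefSeq start at 72663149 was a lower one of 234 bp near the 5′ end (chr16:72051962-72052195), in a stretch of 636 kb. The other 10 lay in the 384 kb after that start, which is 2.60 regions per 100 kb, against 0.157 before it; this start was chosen as the boundary after the positions were seen.

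After that start, 8 regions were higher and 2 lower. The first 2 higher regions, of 477 bp (chr16:72669515-72669991) and 495 bp (chr16:72680193-72680687), lay 10.7 kb apart, the closest pair in the gene. A lower region of 1271 bp, the widest lower region in any guidance gene, followed at chr16:72699774-72701044. Further higher regions lay at chr16:72723055-72723388 and chr16:72792510-72793005, a lower one of 344 bp at chr16:72808222-72808565, and higher ones at chr16:72841161-72841784 and chr16:72853379-72853578. The last 2 were the widest of the gene, 3397 bp at chr16:72988876-72992272 and 1818 bp at chr16:73006846-73008663, with midpoints 56.9 and 39.7 kb from the 3′ end. The 2 lower regions thus lay among the higher ones, at a gap of 15216 bp or more from them.

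Robo2 (chr16:73891976-75447443, 1555 kb) lies on the same chromosome as Robo1. It held 6 regions, 4 higher and 2 lower. Its density of 0.386 regions per 100 kb was close to the 0.365 of other genes of 500 kb and over, whereas Robo1 had 1.08. Its directions were separated by position, a pattern on 6 regions that was described after the positions were seen and was not tested. Both lower regions, of 200 bp (chr16:73946384-73946583) and 271 bp (chr16:74216018-74216288), lay after the internal start nearest the 3′ end, at 74411825. The 4 higher regions, of 200 to 824 bp, all lay before that start, at chr16:74431970-74432169, chr16:74619734-74620130, chr16:74900812-74901635 and, at the internal start shown above, chr16:75092393-75093111.

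Slit3 (chr11:35121456-35708507, 587 kb) held 7 regions, 5 higher and 2 lower, or 1.19 per 100 kb, the highest density among the 7 longest members. Of the 200 genes nearest in length, 17 held 7 or more. Its regions were 211 to 699 bp wide. The higher ones lay at chr11:35162555-35162939, chr11:35370405-35371103, chr11:35383189-35383422, chr11:35502530-35502740 and chr11:35560391-35560603, and the lower ones at chr11:35342596-35342830 and chr11:35440256-35440630. Slit2 (chr5:47981291-48307735) held 1 higher region of 787 bp (chr5:48219880-48220666), and Slit1 none; the nearest region to Slit1 was a higher one of 3024 bp, 19.5 kb beyond its span.

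Slit2 and Slit3 also host a pair of microRNA genes, Mir218-1 and Mir218-2, which give the same 5p product. The higher region of Slit2 ended 3.28 kb before the Mir218-1 hairpin (chr5:48223942-48224051). The nearest region to Mir218-2 (chr11:35616816-35616925) was 56.2 kb away. The shared mature sequence is shown because both Slit genes carry it, with its seed (bases 2 to 8) in capitals.

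mmu-miR-218-5p: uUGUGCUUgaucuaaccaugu

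**Figure D3:**
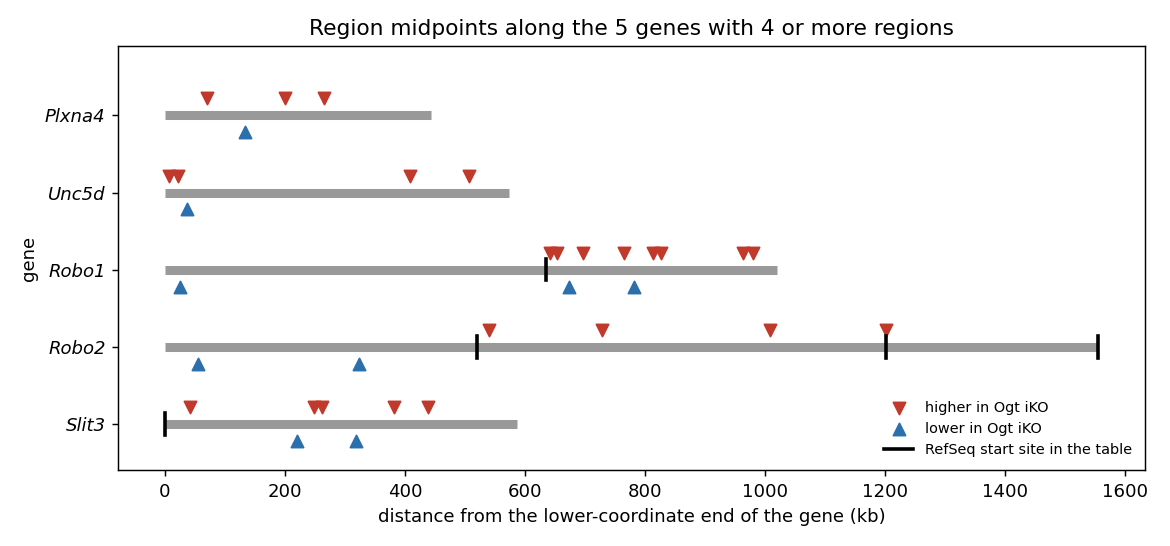
Midpoints of the regions along the 5 guidance genes with 4 or more regions, as distance in kb from the lower-coordinate end of each gene (horizontal axis); red triangles above a gene are higher and blue triangles below it are lower regions, and black ticks are RefSeq start sites. In Robo1, 10 of 11 regions lie after the internal start, and in Robo2 the 2 lower regions lie apart from the 4 higher ones.

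Eph receptors differed by subclass in direction, on few regions. The 7 EphA genes, whose products mainly bind the GPI-anchored ephrin-A ligands, held 1 higher and 4 lower regions, where their length classes give 6.85 and 2.64. The 4 EphB genes, whose products mainly bind transmembrane ephrin-B ligands, held 4 higher and 0 lower regions (2.32 and 0.936 at the class rates). The split into EphA and EphB was made after the counts were seen and was not tested. By gene, the lower regions were 2 in Epha6, of 261 and 446 bp, 1 of 200 bp in Epha3 and 1 of 1229 bp in Epha4 (chr1:77462636-77463864), a receptor of motor and corticospinal axon guidance. The only higher region of an EphA gene was one of 911 bp in Epha5 (chr5:84122428-84123338). Of the EphA regions at least as wide as the median of all regions, 453 bp, 1 was higher (Epha5) and 1 lower (Epha4). The larger number of lower regions in EphA genes thus rested on narrower ones.

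Among EphB genes, Ephb1 held 3 higher regions of 470, 408 and 865 bp, all in the part of the gene towards its 3′ end, 252 to 369 kb from the 5′ end. Ephb2 held 1 of 846 bp, 5.43 kb from the 3′ end. Epha2, Epha7, Epha8, Ephb3 and Ephb4 held none. Epha7, at 154 kb, is the one among them above 50 kb, and its nearest region was 264 kb away. As a family the 11 Eph receptors held 5 higher regions, fewer than the 9.17 at the class rate, and 4 lower ones, close to the 3.57 at that rate.

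Of the ephrins, Efna5 (chr17:62602957-62881317), a repellent in topographic mapping, held 1 higher region of 1262 bp (chr17:62791611-62792872) and 1 lower region of 256 bp (chr17:62849160-62849415), 56287 bp apart. Efna1, Efna2 and Efnb2 held none. A lower region of 252 bp lay 4.69 kb outside Efnb2, which encodes the ephrin of arterial endothelium. None of the promoter windows found for Eph receptors and ephrins overlapped a region.

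Semaphorins held regions at about the rate of their lengths. Of 13 genes, 7 held a region (6.84 at the class rate), with 10 higher and 4 lower regions (11.3 and 4.40). Among the secreted class 3 ligands, Sema3d held 2 higher regions of 200 and 727 bp and Sema3a 1 lower region of 288 bp (chr5:13144552-13144839), 19.9 kb from its 5′ end. Sema3c, Sema3e and Sema3f held none, although Sema3c and Sema3e are 155 and 231 kb long. Sema4d, a transmembrane ligand of Plxnb1, held 2 higher regions of 208 and 200 bp, 17.7 and 12.7 kb from its 5′ end. Sema5a held 2 higher regions of 200 and 215 bp, and Sema5b 1 lower region of 1235 bp (chr16:35589429-35590663).

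The class 6 semaphorins Sema6a and Sema6d were the genes in which opposite directions came closest. Sema6a (chr18:47245254-47371200), a transmembrane ligand of A-type plexins, held a higher region of 4142 bp (chr18:47245452-47249593), the widest in any guidance gene, at its lower-coordinate end. A lower region of 200 bp (chr18:47244251-47244450) lay 1001 bp away from it, just outside the gene, and a second higher region of 913 bp lay 48.7 kb inside. The strand of Sema6a was not used here, so which end this is was not determined. Sema6d (chr2:124089943-124667789) held 3 regions with midpoints 6.92 to 30.6 kb from its 3′ end, which were a higher one of 722 bp (chr2:124636855-124637576), a lower one of 440 bp (chr2:124640883-124641322), 3306 bp further on, and a higher one of 2588 bp (chr2:124659571-124662158). These were the 2 genes with regions of both directions within 10 kb. Such pairs were not counted in other protein-coding genes, so this is no result about guidance genes or class 6 semaphorins. Without the extension of the span, the lower region of Sema6a would not be counted.

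Of the 7 plexins, which receive semaphorin signals, 2 held regions. Plxna4 (chr6:32144543-32588192) held 3 higher regions, at chr6:32215103-32215475, chr6:32345288-32345487 and chr6:32409066-32409408, and 1 lower region at chr6:32277915-32278257, spaced by 62.8 to 67.3 kb. Of the 200 genes nearest in length to it, 60 held 4 or more, so this count was an ordinary one. Plxnc1 held 2 higher regions of 871 and 860 bp. Plxna2, at 197 kb, held none, as did the 4 plexins under 50 kb; a higher region of 313 bp lay 3.32 kb outside Plxnb2. Of the co-receptors, Nrp1, which also binds VEGF, held 1 higher region of 208 bp, 13.1 kb from its 3′ end, and Nrp2 none.

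Netrins and their receptors held 11 higher and 4 lower regions, against 10.7 and 4.12 at the class rates. The 4 ligand genes all held a region (2.36 at the class rate), in both directions. Of the 6 receptor genes, 3 held one (3.73 at the class rate). This split of the family was not tested. Ntn1, the best studied netrin, held 1 lower region of 223 bp (chr11:68345642-68345864), and Ntng1, a membrane-anchored relative, 1 lower region of 966 bp (chr3:109783041-109784006), 3.47 kb from its 3′ end. Ntng2 held 2 higher regions of 777 and 227 bp. Ntn4, a netrin of basement membranes, held a higher region of 1727 bp (chr10:93650472-93652198) 10.3 kb after its start and a lower region of 967 bp (chr10:93744922-93745888) whose midpoint lay 0.567 kb from its 3′ end.

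Of the netrin receptors, Unc5d (chr8:28646717-29219671) held 4 higher regions and 1 lower. The higher ones lay at chr8:28652817-28653016, chr8:28668540-28669090, chr8:29054671-29054870 and chr8:29153075-29153274, and the lower one of 230 bp at chr8:28683044-28683273, with 371397 bp free of regions between the latter and the next higher one. Of these 5 regions, 3 were of 200 bp. Dcc, the attractive netrin receptor and at 1098 kb the second longest member, held 2 higher regions, of 743 and 228 bp; 93 of its 145 neighbours in length held 2 or more. Neo1 (neogenin), a receptor of netrins and Rgm proteins, held 2 higher regions of 1504 and 334 bp, the second of them 4.37 kb from its 5′ end. Unc5a, Unc5b and Unc5c held none. Unc5c, at 369 kb, was the longest member without a region, and a lower region of 321 bp lay 12.7 kb beyond it. Rgma and Rgmb, the neogenin ligands, held none.

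**Figure D4:**
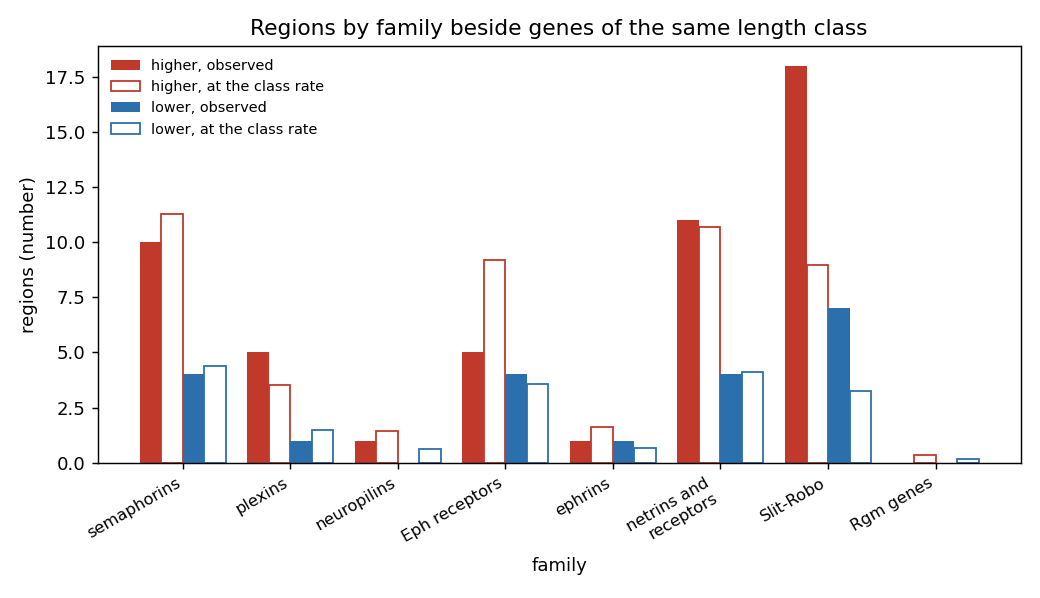
Number of regions (vertical axis) in each of 8 families (horizontal axis), higher in red and lower in blue; filled bars are observed counts and open bars the counts at the rate of other protein-coding genes of the same length classes. Slit-Robo genes exceed their class rate in both directions (18 higher against 8.95 and 7 lower against 3.27), and Eph receptors fall below it for higher regions (5 against 9.17).

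Regions in guidance genes lay deep in the genes. The midpoint was within 1 kb of a gene end in 2 of 72 regions, the lower regions of Sema6a and Ntn4, or 2.78% (95% Wilson interval 0.765 to 9.57%). In other protein-coding genes it was 7.82%, and in those of 100 kb and over 1.96%, so long genes have the same low share. For the 57 regions in genes with a known strand, 12 lay in the part nearest the 5′ end of 3 equal parts, 21 in the middle and 24 in the part nearest the 3′ end. In other genes of 100 kb and over, 32.9%, 31.6% and 35.5% lay in those parts. Without Robo1, the counts were 11, 18 and 17 of 46, so the higher pooled count at the 3′ end rested on Robo1. For the lower regions alone, 8 of 17 lay in that part with Robo1 and 7 of 14 without it, against 32.1% in the other long genes. These are few regions, 2 of them in Robo2, and the difference was not tested. A single region, the Neo1 one above, lay within 5 kb of a 5′ end (1.75%, against 3.41% in the other long genes). The gene table gave spans without exons, so introns and exons were not separated. Of the 72 regions, 5 also lay in the span of another, non-member gene.

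Higher regions in guidance genes had a lower median width than those in other long genes. It was 477 bp (interquartile range 214 to 835 bp, 51 regions), against 552 bp in other protein-coding genes of 100 kb and over (280 to 1008 bp, 2539 regions). Regions of 1000 bp or more made up 13.7% of them (7 of 51; 95% Wilson interval 6.81 to 25.7%), against 25.3% in those other genes (23.6 to 27.0%). Lower regions had a median of 288 bp (21 regions), against 312 bp. No test was made of these differences. At the minimum width in the lists, 200 bp, stood 9 of the higher and 3 of the lower regions.

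Further genes of the pathway were counted for context. Of 29 ligand and receptor genes outside the list, whose median span is 16.4 kb, 5 held a region (6.00 at the class rate), namely Dscam and Nrcam with 3 higher each, Dscaml1 with 2 lower, and Chl1 and Robo4 with 1 lower each. Of 44 genes for intracellular partners, such as GTPase regulators and cytoskeletal proteins, 27 held a region (22.1 at the class rate), with 35 higher and 15 lower regions (32.1 and 12.9). The most were in Dock1, a Rac exchange factor that acts downstream of Dcc, with 5 higher regions, and in Ablim1, an actin-binding protein, with 4 higher. Srgap1 held 3 higher and Srgap3 2 higher and 1 lower; both encode GTPase-activating proteins that act downstream of Robo. Arhgef12 (2 higher, 1 lower) and Ptk2 (3 lower), the focal adhesion kinase, held 3 each.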

How the data were processed

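CMS-IP with spike-ins and input DNA were sequenced from 8 samples in 4 groups of 2, with groups taken from the sample titles. The 2 lists analysed were deposited by the authors and named for mm10 and for the direction of change in the knockout. The list names write the knockout as OgtiTKO, which was read here as the Ogt iKO of the sample titles. Bismark and MACS2 are named in the submitters' processing notes, without version or role. How regions were tested, at which threshold, and how replicates, inputs and spike-ins entered is not given in the sources used here. Coordinates are printed 1-based, with the deposited starts read as 0-based.

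Spans of genes were taken from the RefSeq table of GRCm38.p6 (49595 rows on chromosomes 1 to 19, X and Y; 402 others were left out), and all 54 symbols matched. Genes were classed by span at 20, 50, 100, 200 and 500 kb. The class rate is the sum, over the genes described, of the share or mean of the other protein-coding genes of each gene's class. It is a background, not a test. The members, lists and alternatives were chosen with earlier results of these data known. Every member with a region was named by rule; coordinates were given for members with 4 or more regions, regions near a gene end or start, the 5 widest of each direction and opposite directions within 10 kb, and for some others chosen after they were seen. Other pathway genes were named from 3 regions upward or, where 5 or fewer held any, in full; 1 gene that this rule selected is not reported. Python 3.11.15, pandas 2.3.3, numpy 2.4.6 and scipy 1.17.1 were used; lookups were tested on simulated data and by direct search.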

Additional observations from a re-analysis of the deposited data

How the results depend on the processing

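The count of 28 guidance genes with a region against the rate of their length classes, and the ratios of higher and lower regions to that rate, stayed within 1.5 times their values under the other extensions of the span, counting by any overlap, the wider regions, clusters within 100 kb, the 200 genes nearest in length and, chosen after the data were seen, leaving out Robo1 or the Slit-Robo genes. Of 101 recomputed values, 87 stayed near the reported one and 14 moved. The ratios crossed 1 in some settings. The ratio for higher regions, 1.08 as reported, was 0.994 among the wider regions, 0.960 without Robo1 and 0.866 without the Slit-Robo genes. That for lower regions, 1.15 as reported, was 0.816 among the wider regions, 0.935 without the Slit-Robo genes and 1.30 among clusters within 100 kb. Restricted to regions at least as wide as the median, 453 bp, 5 members held a lower region and 2 held both directions. The higher share was then 84.4%, beside 81.6% at the class rate. The regions left were 6 in semaphorins, 2 in plexins, 0 in neuropilins, 5 in Eph receptors (4 higher, 1 lower), 1 in ephrins, 7 in netrins and netrin receptors and 11 in Slit-Robo genes. Merging within 100 kb left 9 in semaphorins and 15 in Slit-Robo genes, by construction. It also left 3 higher and 4 lower clusters in Eph receptors, where 5 higher and 4 lower regions were counted. No class rate for a single family is given for the wider regions or the clusters. The higher share lay below the class rate as reported (70.8% against 72.1%) and among clusters within 100 kb (60.4% against 65.0%), and above it among the wider regions. With a span extended by 10 kb, 31 members held a region, against 30.2 at the class rate, and Plxnb2, Efnb2 and Rgmb, all under 50 kb, were among them. That span put 1 region in the Rgm genes, and a window of 5 kb put 5 regions near a gene end. No paired analysis was possible because the lists carry no value for a single sample, so leaving out a replicate could not be tried either. The depth behind the regions is unknown, so a gene without a region is not shown to be unchanged.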
